A study of Homo sapiens with 36 samples.

Results

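The comparison described here asks how the RNA response of WiT49 cells to low-dose actinomycin D (actD) at 72 h differs from the response at 6 h. WiT49 is an established human cell line from an anaplastic Wilms tumor, a kidney tumor of childhood. The comparison rests on the 12 RNA libraries of these times, of 36 libraries in the series: 3 with 2 nM actD for 6 h, 3 with the vehicle dimethyl sulfoxide (DMSO) for 6 h, 3 with 2 nM actD for 72 h and 3 with DMSO for 72 h. All groups share the cell line and its serum-containing growth medium. Nothing in the labels says that the replicates were separate cultures, so p-values measure the spread between these libraries, which may be technical. The labels also do not say whether the 2 times were run side by side, and each time has its own table, so time and table cannot be told apart. The treatment-by-time difference, the actD minus DMSO change at 72 h minus the same change at 6 h, is unaffected by a factor that acts equally on both arms of a time. In bulk RNA, fewer cells of a type and less RNA per cell cannot be told apart.

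Actinomycin D inserts into DNA and stalls RNA polymerases. At low doses it is known for blocking RNA polymerase I, which transcribes the long precursor of ribosomal RNA, the 45S pre-rRNA, before it strongly affects RNA polymerase II, which makes messenger RNA. The precursor carries external spacers that are cut off and degraded soon after synthesis, so spacer RNA follows current transcription, whereas most messenger RNAs turn over more slowly. Several pathways that feed a growing cell are controlled as units: ATF4, a transcription factor of the amino acid response, drives serine synthesis enzymes, amino acid transporters and aminoacyl-tRNA synthetases, and SREBP factors drive the enzymes of cholesterol and fatty acid synthesis.

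The genes that passed the test at 6 h were 2 near-identical copies of a microRNA gene, 1 of them annotated in the ribosomal RNA spacer. Those at 72 h were mostly protein-coding. Of 24251 genes tested, 2 were called at 6 h (0.00825%), both lower with actD: MIR3648-2 and MIR3648-1. At 72 h, 622 genes were called (2.56%), 91 higher (0.375%) and 531 lower (2.19%), and none of them was called at 6 h. The treatment-by-time difference itself was called for 4 genes (0.0165%). MGAT3 was lower with actD at 72 h (1 gene with a lower effect, 0.00412%). LYRM7, AC011511.1 and the pseudogene AC023512.1 were higher with actD at 72 h (3 genes with a higher effect, 0.0124%). Here and below, rose and fell mean higher or lower with actD than with DMSO of the same time, not a course over time. Such a change can sit in the level of either arm. A gene was called where the Benjamini-Hochberg adjusted p of edgeR's quasi-likelihood test was under 0.05 in one model over the 12 libraries. At an unadjusted p under 0.05 there were 1077 genes at 6 h (4.44%), 4383 at 72 h (18.1%) and 2018 for the difference (8.32%). The 3 actD libraries were all above or all below the 3 DMSO libraries in 15% of genes at 6 h and 19.7% at 72 h, the background for every statement below that arms were apart.

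The count of 622 rests on estimating the spread from both times together. Replicates differed more at 72 h, with a chi-square per degree of freedom between them of 86.5 to 355, against 27.5 to 90.8 at 6 h. A shared spread can therefore make p-values at 72 h too small. With the 6 libraries of 72 h fitted alone, 1 gene was called, MGAT3 (adjusted p = 0.0227, edgeR quasi-likelihood test), and the other named genes called at 72 h kept their direction without passing. DESeq2 called 1818 genes at 72 h, 603 of them among the 622, and 158 for the difference, which included all 4. Without actD replicate 1 or 2 of 72 h the count was 94 or 95. The 72 h calls described below are calls of the joint model.

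**Figure D1:**
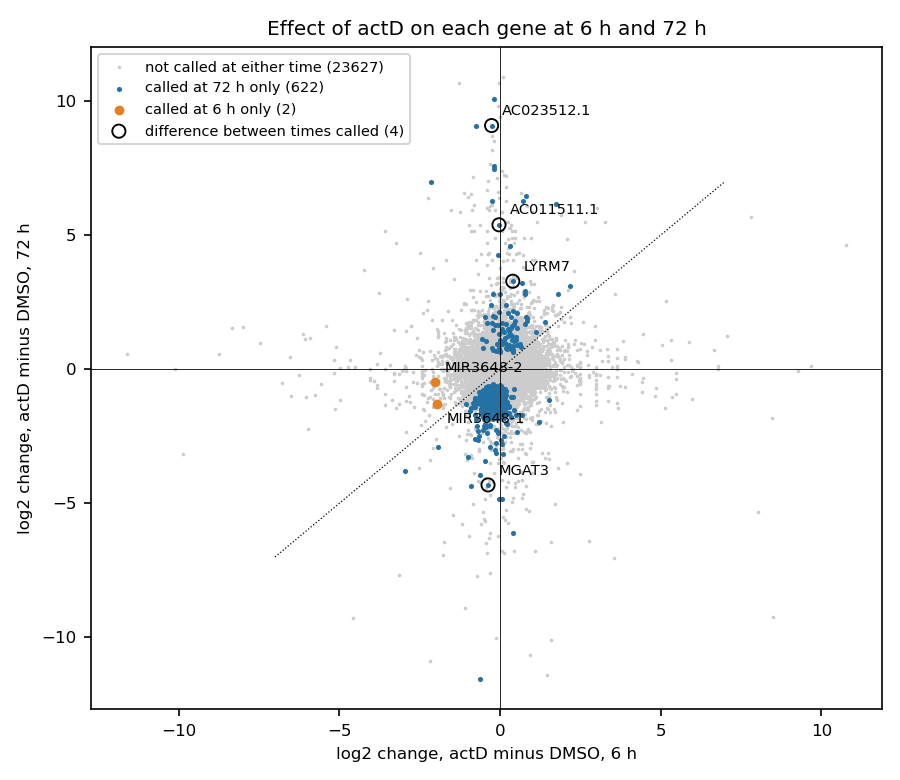
Each point is a tested gene, with its log2 change (actD minus DMSO) at 6 h on the horizontal axis and at 72 h on the vertical axis; the dotted line marks equal changes. The 622 genes called at 72 h (blue) form 2 clouds above and below 0 on the vertical axis and lie mostly closer to 0 on the horizontal axis, the 2 genes called at 6 h (orange) lie near -2 on the horizontal axis, and the 4 circled genes were called for the difference.

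The libraries held 58421293 to 69240041 counts at 6 h and 40221994 to 67342802 at 72 h. Both libraries numbered 3 at 72 h stood apart from the others of their group. Replication-dependent histone genes took 0.402% of the counts in DMSO replicate 3 and 0.466% in actD replicate 3, against 0.888% to 1.11% in the other 4 libraries of 72 h. Genes at the ribosomal RNA loci took 0.150% of the counts in DMSO replicate 3 against 2.10% and 2.52% in the other DMSO libraries, and 0.556% to 0.996% with actD. Without these 2 libraries, a setting chosen after seeing the data, 2052 genes were called at 72 h, 538 of them among the 622, and 236 for the difference. Markers of the cell types a Wilms tumor can hold were summed per library. The 9 blastema markers summed to 29.03 to 36.6 CPM (counts divided by the scaled library total) with DMSO and 31.6 to 35.1 with actD at 6 h, and to 31.3 to 36.8 and 21.9 to 34.5 at 72 h. The sums of the 7 muscle markers overlapped at 6 h. At 72 h they were at 22.4 to 33.1 CPM with DMSO and 36.5 to 42.1 CPM with actD. MYOD1, MYOG and ACTC1 were at 0 throughout. Of the 4 tested muscle markers, 1 was higher and 3 were lower with actD at 72 h, with a median change of -0.06. The part of the muscle markers in the results was not tested. Epithelial markers summed to 4326 to 6413 CPM with DMSO and 4285 to 5003 CPM with actD at 6 h. At 72 h they summed to 1207 to 2428 CPM with DMSO and 1084 to 1876 CPM with actD, below 6 h in both arms. Stromal markers summed to 1750 to 3022 CPM over the 12 libraries. For both sets the arms overlapped at both times. Leukocyte markers summed to 1.22 to 3.58 CPM and endothelial markers to 0.946 to 5.16 CPM, with the endothelial marker EMCN at 0 throughout. No marker of these lists was called.

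Of the 2 early calls, 1 lies in the 5' external spacer of an annotated ribosomal RNA precursor. MIR3648 is annotated as a microRNA gene of 180 bases, and its copy MIR3648-1 (GRCh38 chr21:8208473-8208652, plus strand) lies inside RNA45SN2 (chr21:8205988-8219302, RefSeq GRCh38.p14), 2485 bases after the start of the precursor and 979 bases before the 18S sequence. The copy MIR3648-2 lies at chr21:8986999-8987178, outside the annotated precursors. The 2 copies are near-identical, so the counting can split reads between them and their values are not independent. The mature microRNA assigned to this stretch is shown because the 2 early genes carry it, with its seed (bases 2 to 8) in capitals; the sequence is from RefSeq, GRCh38.p14.

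hsa-miR-3648: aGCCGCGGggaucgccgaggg

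MIR3648-2 was at 1.93, 1.61 and 1.84 CPM in the DMSO libraries of 6 h and at 0.636, 0.413 and 0.252 CPM in the actD libraries. All actD libraries were below all DMSO libraries. The change was -2.03 on the log2 scale (SE 0.25, adjusted p = 0.00386, edgeR quasi-likelihood test). MIR3648-1 was at 2.77, 2.36 and 2.81 CPM with DMSO and at 0.983, 0.627 and 0.394 CPM with actD, again without overlap, a change of -1.98 (SE 0.30, adjusted p = 0.0473, edgeR). MIR3687 is a second microRNA, whose copy MIR3687-1 is annotated 727 bases before 18S in the same spacer. Its changes of -2.01 for MIR3687-1 and -1.79 for MIR3687-2 did not pass (adjusted p = 0.483 and 0.819, edgeR). These loci are nearly unmeasured at 72 h, where MIR3648-1 had 0 to 3 counts and MIR3648-2 had 1 or 2 counts in each library. The difference between times was 1.54 (SE 1.13) for MIR3648-2 and 0.66 (SE 1.84) for MIR3648-1, so a call at 6 h and none at 72 h does not show that the effect of actD differed. Both calls at 6 h were lost with the legacy fit, with 6 h fitted alone and with the replicate block, and MIR3648-1 was also lost when single libraries were left out.

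Downstream parts of the precursor were measured less precisely. The 3 genes counted within the 18S sequence changed by -0.50 (FP236383.2, SE 0.70), -1.01 (FP671120.3, SE 0.80) and -0.99 (FP236383.3, SE 0.70) at 6 h without passing the test. The 4 copies of RNA5-8SN2, the 5.8S ribosomal RNA, had changes of -0.70, -0.01, 0.07 and 0.26 at 6 h and of -2.36 to -2.33 at 72 h, and none passed at either time. Genes of the ribosomal RNA loci took 0.00285% to 0.00804% of the counts at 6 h but 0.150% to 2.52% at 72 h.

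GABARAPL1 came closest to an early call among protein-coding genes of at least 1 CPM. GABARAPL1, an autophagosome protein of the ATG8 family, was at 54.3, 46.4 and 63.7 CPM with actD and 14.8, 16.4 and 20.8 CPM with DMSO at 6 h. All 3 actD libraries were above all DMSO libraries at 6 h, and its change of 1.66 narrowly missed the threshold (adjusted p = 0.0543, edgeR). At 72 h it was at 51.5, 55.5 and 80.8 CPM with actD and 56.0, 50.7 and 36.5 CPM with DMSO, so the arms overlapped, and the difference between times of -1.27 (SE 0.32) did not pass (adjusted p = 0.345, edgeR). GPR62, an orphan G protein-coupled receptor, was the gene of this kind nearest to a shared change. Its levels were 3.43, 3.31 and 2.79 CPM with actD and 0.785, 0.757 and 1.19 CPM with DMSO at 6 h, and 1.24, 1.69 and 1.08 against 0.237, 0.318 and 0.0647 CPM at 72 h. The arms did not overlap at either time, but only the change at 72 h passed (2.81, adjusted p = 0.00999; 1.80 at 6 h, adjusted p = 0.316, edgeR). AC115284.2, an transcript of unsettled status annotated on the same chromosome close to GPR62, changed by 2.17 at 6 h (adjusted p = 0.0543) and rose by 3.10 at 72 h (adjusted p = 0.00171, edgeR). No gene was shared in the joint model, 10 genes were shared with DESeq2, and 10 were shared without the 2 libraries numbered 3 at 72 h.

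MGAT3 had the strongest evidence for an effect that differed between the times. It encodes the glycosyltransferase that adds the bisecting N-acetylglucosamine to N-linked glycans (chr22:39457344-39492194, plus strand, ENSG00000128268.11). At 6 h its level was 9.66, 7.78 and 10.5 CPM with actD and 12.3, 12.5 and 11.3 CPM with DMSO. At 72 h it was 0.640, 0.493 and 0.380 CPM with actD and 9.35, 10.2 and 10.5 CPM with DMSO. The actD libraries were below the DMSO libraries at both times, slightly at 6 h and far below at 72 h. The change was -0.37 (SE 0.19) at 6 h, which did not pass, and -4.31 (SE 0.24, adjusted p = 5.18e-06) at 72 h, and the difference was -3.94 (SE 0.30, adjusted p = 0.000248, edgeR). This difference was called in all 23 alternatives that gave it a value, with adjusted p from 4.37e-32 to 0.0217. An antisense gene, MGAT3-AS1, overlaps it and was at 0 to 0.173 CPM in the 12 libraries.

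LYRM7 rose at 72 h. It encodes a chaperone that inserts the iron-sulfur protein into complex III of the respiratory chain (chr5:131170810-131205426, plus strand, ENSG00000186687.15). Its level was 14.6, 13.9 and 20.8 CPM with actD and 12.7, 11.8 and 13.1 CPM with DMSO at 6 h. At 72 h it was 60.9, 104 and 135 CPM with actD and 11.7, 8.64 and 10.6 CPM with DMSO. The actD libraries were above the DMSO libraries at both times, narrowly at 6 h, and spread widely at 72 h. The change was 0.40 (SE 0.26) at 6 h and 3.28 (SE 0.28, adjusted p = 0.000582) at 72 h, and the difference was 2.88 (SE 0.38, adjusted p = 0.0341, edgeR). The call was lost in 8 of 23 alternatives, among them 5 in which a single 6 h library was left out and 1 without actD replicate 2 of 72 h, with adjusted p up to 0.151. HINT1 overlaps LYRM7 on the other strand, and its own change at 72 h was 0.09; among the other 15 assembly factors of the same list none was called.

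The other 2 genes that were higher with actD at 72 h had few counts. AC011511.1, annotated as protein-coding (chr19:10305427-10316009, minus strand, ENSG00000167807.15), was at 1.07, 1.80 and 2.70 CPM with actD and 2.14, 2.07 and 1.46 CPM with DMSO at 6 h. At 72 h it had 78, 74 and 41 counts with actD and 1, 1 and 2 counts with DMSO, a ratio of 44.6 by depth-scaled counts (95% interval 17.1 to 165, exact binomial, counting error only). Its mean was 1.85 CPM at 6 h and 1.31 CPM at 72 h with actD, and 1.89 and 0.0288 CPM with DMSO. It overlaps ZGLP1, AC011511.4 and FDX2 on its own strand, so reads of these genes can be assigned to either; ZGLP1 changed by 1.02 and FDX2 by 0.45 at 72 h, and neither passed. AC023512.1, a processed pseudogene (chr12:16989126-16989936, plus strand, ENSG00000256211.1), had 55, 60 and 57 counts with actD at 72 h and 0 counts in every DMSO library, which makes it at least 16.6-fold higher against a floor of 3 counts per library. At 6 h both arms had 24 to 59 counts. A processed pseudogene is a copy of another gene's messenger RNA, and reads of the parent can be counted there. Their differences between times passed with adjusted p = 0.0136 and 0.0341 (edgeR), and the calls were lost in 4 and 12 of 23 alternatives.

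**Figure D2:**
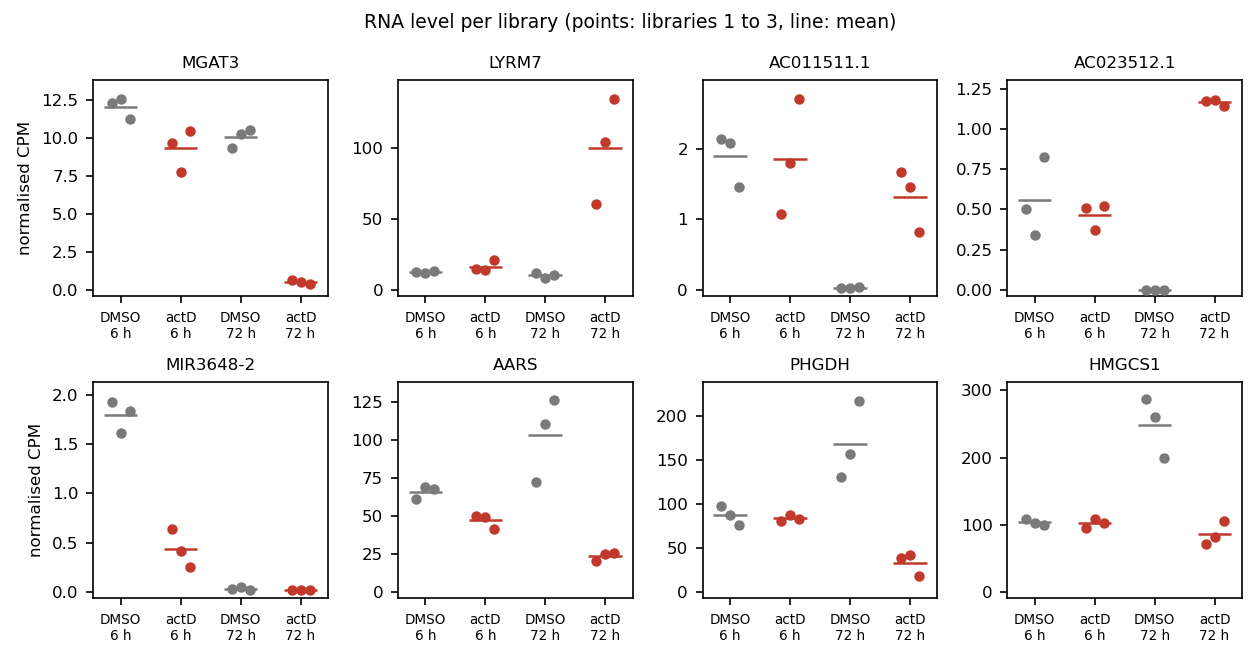
Normalised level in CPM (vertical axis, from 0) of 8 genes in each library, by treatment and time; points are libraries 1 to 3 from left to right and lines are group means. MGAT3 drops below 0.7 CPM only in the actD libraries of 72 h, LYRM7 exceeds 60 CPM only there, MIR3648-2 is separated by treatment at 6 h and near 0 at 72 h, and AARS, PHGDH and HMGCS1 are apart between the arms of 72 h.

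The late-only class, genes called at 72 h and not at 6 h, was mostly messenger RNA that was lower with actD than with DMSO at 72 h. Of the 531 lower genes 480 were protein-coding and 34 were processed pseudogenes, and of the 91 higher genes 59 were protein-coding, 10 were antisense and 10 were long intergenic RNAs. The median log2 change of the lower genes was -1.09 at 72 h and -0.23 at 6 h, and 449 of them had the same sign at 6 h. For the higher genes the medians were 1.54 and 0.19, and 60 had the same sign at 6 h. Values at 72 h chose these genes and describe them only. The difference between times was called for 1 of the lower and 3 of the higher genes, and 423 (79.7%) and 71 (78%) of them had an unadjusted p under 0.05 for it. For the rest of the class the difference between times was not called, so late-only names where the calls lie.

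Among protein-coding genes of at least 1 CPM, the late-only lower genes with the smallest p, after MGAT3, were MTHFD1L, AARS, EPB41, SLC6A17, MAGED1, ASAP2 and SMARCC1. EPB41, which anchors the spectrin skeleton to the membrane, was at 37.0, 45.9 and 35.3 CPM with actD and 108.1, 108.4 and 108.1 CPM with DMSO at 72 h. The arms were apart and the DMSO libraries almost identical, and the change was -1.46 (SE 0.15, adjusted p = 0.00171, edgeR). MAGED1, an adaptor protein in p75 neurotrophin receptor signalling, changed by -2.09, the neuronal amino acid transporter SLC6A17 by -1.82, the SWI/SNF chromatin remodelling subunit SMARCC1 by -1.41 and the Arf GTPase-activating protein ASAP2 by -1.30. At 6 h these 5 genes changed by -0.50 to -0.21 and none passed. RAB27B, a secretory vesicle GTPase, MSH6, a mismatch repair protein, and KIF1A, an axonal kinesin, fell by 1.64, 1.41 and 1.34 on the log2 scale at 72 h, with differences between times of -1.93, -1.69 and -1.22 that did not pass (adjusted p = 0.125 each, edgeR).

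IPO4, an importin that carries histones and ribosomal proteins into the nucleus, was higher with actD than with DMSO at 72 h. Its levels at 72 h were below those of 6 h in both arms. It was at 17.3, 19.1 and 13.8 CPM with actD and 4.51, 5.70 and 5.88 CPM with DMSO at 72 h, and at 24.3, 32.7 and 23.8 against 26.0, 36.3 and 27.95 CPM at 6 h. The arms of 72 h were apart and those of 6 h overlapped. The change was 1.64 (SE 0.21, adjusted p = 0.00352) at 72 h and -0.16 at 6 h, and the difference of 1.80 did not pass (adjusted p = 0.125, edgeR). IPO4 overlaps REC8 on the other strand and AL136295.4 on its own strand, so reads of IPO4 and AL136295.4 can be assigned to either. AL136295.4 was at 0.0213, 0.0197 and 8.45 CPM with actD and 28.7, 31.7 and 9.78 CPM with DMSO at 72 h. Its change, opposite to that of IPO4, did not pass (adjusted p = 0.169, edgeR). What part the overlap has in the rise of IPO4 was not tested. The voltage-gated potassium channel KCNH3 rose by 1.96, the growth cone protein BASP1 by 0.92 and the cytokine cardiotrophin 1, CTF1, by 1.06 on the log2 scale. DISP2 and METTL23 were lower with actD in all libraries at 6 h and rose at 72 h, with differences of 1.70 and 1.299 that did not pass (adjusted p = 0.209 each, edgeR).

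Of the 531 lower genes 113 belonged to at least 1 of 38 gene lists, which held 1764 of the 24251 tested genes. Of the 91 higher genes 3 did. Not every list is a pathway. Without the list of genes over 500 kb, the lists held 87 of the lower, 3 of the higher and 1522 of all tested genes. The lists are described by counts and medians beside those of all tested genes, whose median change was 0.01 at 6 h, 0.00 at 72 h and -0.03 for the difference. The share called lower at 72 h was 2.19% of all genes and 3.16% of protein-coding genes, and no list share was tested against it. Leaving out libraries of 72 h changed the calls over all genes too. The 622 became 1195 without DMSO replicate 3, 984 without actD replicate 3 and 2052 without both. List counts in those settings are to be read beside these totals.

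**Figure D3:**
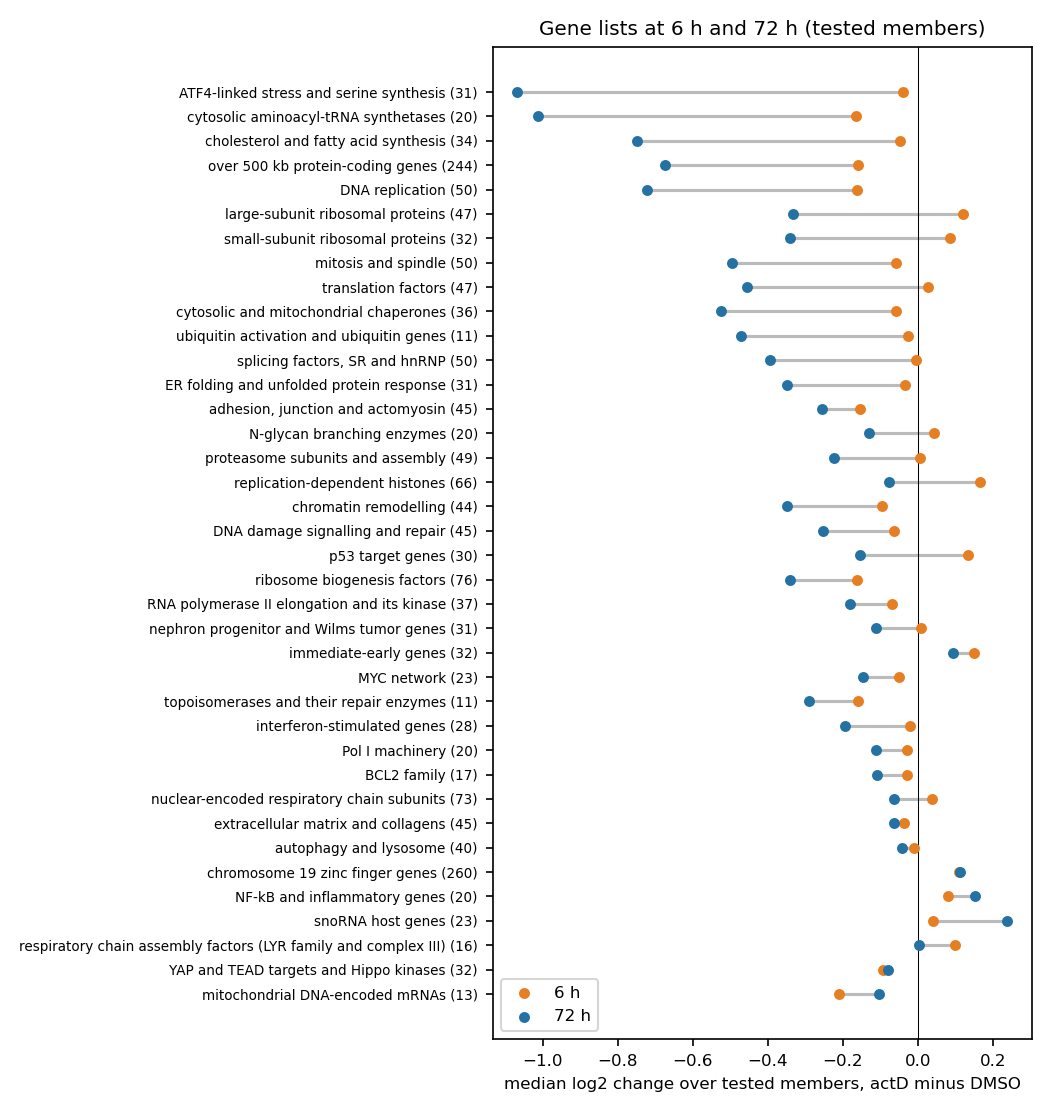
Median log2 change (horizontal axis, actD minus DMSO) over the tested members of 38 gene lists at 6 h (orange) and 72 h (blue), ordered by the median difference, with the number of tested members in parentheses. ATF4-linked genes, aminoacyl-tRNA synthetases, cholesterol synthesis, genes over 500 kb and DNA replication sit between -0.67 and -1.07 at 72 h and between -0.17 and -0.04 at 6 h.

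Cytosolic aminoacyl-tRNA synthetases, which load amino acids onto transfer RNA, were lower as a family at 72 h. Of 20 tested members, 11 fell at 72 h (55%, against 2.19% of all genes), none rose, and all 20 had a negative change. At 6 h none was called, but 19 of the 20 also had a negative change. The list median was -1.01 at 72 h, -0.17 at 6 h and -0.72 for the difference. AARS, the alanyl-tRNA synthetase, was at 20.6, 24.9 and 26.0 CPM with actD and 72.4, 110.6 and 126 CPM with DMSO at 72 h. At 6 h it was at 50.1, 49.7 and 41.3 against 61.1, 69.1 and 68.0 CPM, so the arms were apart at both times. Its change was -0.49 at 6 h, which did not pass, and -2.11 (SE 0.21, adjusted p = 0.00102) at 72 h, and the difference of -1.62 (SE 0.28) did not pass (adjusted p = 0.125, edgeR). The other called members were EPRS at -1.69, CARS at -1.48, SARS at -1.43, YARS at -1.38, GARS at -1.37, QARS at -1.35, IARS at -1.13, LARS at -1.12, TARS at -1.02 and WARS at -1.01. Without both libraries numbered 3, 16 of the 20 fell and the median at 72 h was -0.92.

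ATF4-linked genes of amino acid stress and serine synthesis had the lowest median at 72 h, -1.07, against -0.04 at 6 h. Of 31 tested members, 9 fell at 72 h (29%) and none rose. The enzymes of serine synthesis and one-carbon metabolism were prominent: PHGDH, which opens the serine pathway, PSAT1, its second enzyme, SHMT2, which converts serine to glycine in mitochondria, MTHFD1L, which makes formate, and CBS, which channels serine into cysteine. PHGDH was at 39.1, 42.0 and 18.6 CPM with actD and 130, 156 and 217 CPM with DMSO at 72 h, and at 80.4, 88.2 and 82.9 against 97.8, 88.0 and 76.6 CPM at 6 h. The arms were far apart at 72 h and overlapped at 6 h. The change was -2.34 (SE 0.29, adjusted p = 0.00308) at 72 h, and the difference was -2.28 (SE 0.39, adjusted p = 0.125, edgeR).

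The remaining called members of this list were asparagine synthetase ASNS at -3.12, the cystine transporter SLC7A11 at -3.17, the secreted glycoprotein STC2 at -2.76 and mitochondrial PCK2 at -2.37. ATF4 itself changed by 0.17 at 72 h and its target DDIT3 by -0.61, and neither passed. DMSO replicate 3 of 72 h carried much of the size of these changes. PSAT1 was at 206, 147 and 507 CPM in the DMSO libraries and at 63.6, 58.7 and 58.7 CPM in the actD libraries. The list's level in that library was 0.95 on the log2 scale above the DMSO mean, against -0.41 and -0.57 in the other 2. Without it, the list median was -0.39 at 72 h and -0.40 for the difference, and 9 members were called.

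A composite DNA element of ATF4 and CEBP proteins has the core TGATGNAA. It was searched on both strands in the 250 bases before RefSeq gene starts, alongside CCAAT, the box bound by NF-Y; a base could belong to both motifs. TGATGNAA was in 3.14% of 35116 promoters and 3.89% of 27305 genes. It was found in 3 of 16 aminoacyl-tRNA synthetase genes in the table (18.8%), all 3 among the 9 that fell, and in 5 of 26 ATF4-linked genes (19.2%), of which 2 were among the 7 that fell. The sterol element, in 0.0439% of genes, was in 1 of 27 cholesterol and fatty acid genes and in 0 of the 7 of them that fell. CCAAT, in 37.0% of genes, was in 7 of the 16 and 18 of the 26, and in 20 of 27 cholesterol and fatty acid genes. The 5 matches of fallen genes are shown with 30 bases each, 5' to 3' on the gene's strand, from RefSeq GRCh38.p14, with the match in capitals; TTGCATCA and TTTCATCA are the motif read on the other strand. Each match also overlaps an untranslated region annotated in GENCODE 29, whose gene and strand were not checked.

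AARS, chr16:70289675-70289704, minus strand: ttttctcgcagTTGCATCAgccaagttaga
IARS, chr9:92293698-92293727, minus strand: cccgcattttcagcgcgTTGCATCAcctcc
GARS, chr7:30594834-30594863, plus strand: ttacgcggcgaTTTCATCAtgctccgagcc
MTHFD1L, chr6:150866346-150866375, plus strand: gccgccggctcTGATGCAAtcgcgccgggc
ASNS, chr7:97872458-97872487, minus strand: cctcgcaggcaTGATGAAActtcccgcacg

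The match began 187 bases before the start in AARS, 129 in MTHFD1L, 68 in ASNS, 33 in GARS and 13 in IARS. A match is a description of the sequence and not evidence of binding in these cells.

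Cholesterol and fatty acid synthesis was the third family that was lower late. Of 34 tested members 10 fell at 72 h (29.4%), none rose, and none was called at 6 h. The median was -0.75 at 72 h, -0.05 at 6 h and -0.70 for the difference. HMGCS1, the synthase before the rate-limiting reductase, was at 70.9, 81.4 and 106.1 CPM with actD and 287, 260 and 199 CPM with DMSO at 72 h, and at 94.6, 108.1 and 103 against 108.5, 102 and 100.4 CPM at 6 h. The arms of 72 h were apart and those of 6 h overlapped. The change was -1.53 (SE 0.19, adjusted p = 0.00308) at 72 h and -0.02 at 6 h, and the difference of -1.50 (SE 0.26) did not pass (adjusted p = 0.125, edgeR). The pathway was touched along its length: ACLY, which makes cytosolic acetyl-CoA, at -1.45, the carboxylase ACACA at -1.38, the desaturase SCD at -0.93, mevalonate kinase MVK at -0.998, squalene synthase FDFT1 at -0.92, SQLE at -0.87, LSS at -0.92 and NSDHL at -0.997. Without actD replicate 3 of 72 h 4 members were called, and without DMSO replicate 3 18 were called, with medians of -0.61 and -0.89.

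DNA replication genes had a median of -0.72 at 72 h, -0.16 at 6 h and -0.55 for the difference, and 7 of 50 fell at 72 h (14%). At 6 h none was called, but 36 of the 50 had a negative change. For 15 of the 50 the actD libraries were all below the DMSO libraries at 6 h, and for 1 all above. The 7 that fell included helicase subunits MCM6 (-1.66) and MCM7 (-1.58) and the single-strand binding subunit RPA1 (-1.51). They also held the ribonucleotide reductase subunit RRM1 (-1.54), DNA ligase LIG1 (-1.71), the polymerase subunit POLA1 (-1.27) and CDC45 (-1.35). MCM6 was at 91.2, 98.7 and 82.0 CPM with actD and 128, 117 and 114 CPM with DMSO at 6 h. At 72 h it was at 32.4, 35.98 and 39.2 CPM with actD and 128, 154 and 57.6 CPM with DMSO. The arms were apart at both times, at 72 h with DMSO replicate 3 nearest to the actD libraries. In that library the list stood 0.55 below the DMSO mean on the log2 scale, and without it 22 members were called. Mitosis genes had a median of -0.49 with 0 of 50 called, and 15 called without that library. Replication-dependent histones had a median of -0.08 at 72 h with 0 of 66 called; both libraries numbered 3 were low for them, at -1.09 and -0.80, and the median ran from -0.38 to 0.32 with 1 library left out. Of 45 genes of DNA damage signalling and repair 4 fell (8.89%), among them PARP1 (-2.30), XRCC5 (-1.19) and XRCC1 (-1.09). Whether the libraries numbered 3 differ in proliferation, and what part that has in these values, was not tested.

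**Figure D4:**
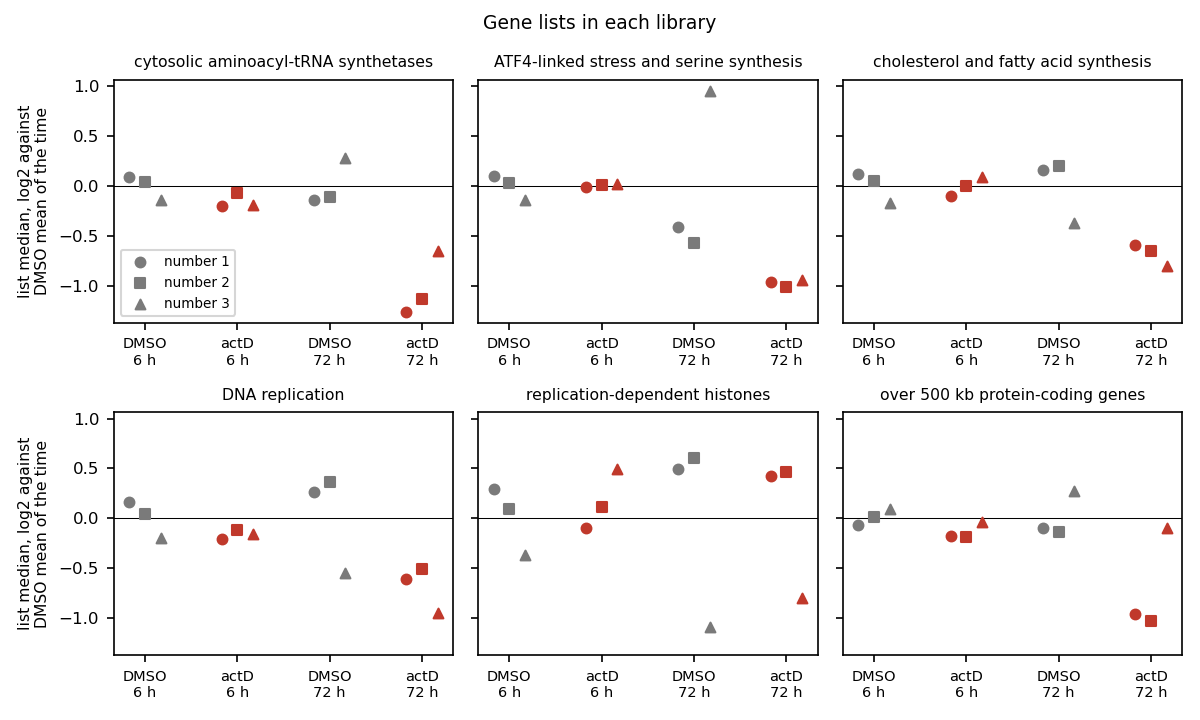
Median log2 level of the tested members of 6 gene lists in each library, relative to the mean of the DMSO libraries of the same time (vertical axis), by treatment and time; the marker shape gives the replicate number. At 72 h the aminoacyl-tRNA synthetases are at -1.26 to -0.65 with actD and at -0.14 to 0.28 with DMSO, whereas replicate 3 leaves its group in both arms for histones and in the actD arm for genes over 500 kb.

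Genes of the translation and protein folding machinery were lower at 72 h in smaller numbers. Of 47 translation factors 6 fell (12.8%), among them elongation factor EEF2 (-1.60), the initiation factor subunits EIF3C (-1.62), EIF3L (-1.18) and EIF3A (-1.08), EEF1D (-0.74) and EIF2B3 (-0.89). The list median was -0.45 at 72 h and 0.03 at 6 h. Of 36 chaperones 5 fell (13.9%): mitochondrial HSPD1 (-1.24), HSPA9 (-1.20) and TRAP1 (-1.08), cytosolic HSP90AB1 (-1.26) and CCT3 (-0.82). HSPD1 was at 224, 257 and 257 CPM with actD and 612, 647 and 488 CPM with DMSO at 72 h, without overlap, and its arms overlapped at 6 h. Without DMSO replicate 3 of 72 h, 17 of the 36 chaperones were called. In the unfolded protein response list XBP1 (-1.14) and SEC24D (-1.61) fell, 2 of 31 (6.45%, against 3.16% of all protein-coding genes).

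Genes of ribosome production were called in small numbers in the joint model. Of 76 ribosome biogenesis factors 5 fell at 72 h (6.58%): NOLC1 (-1.06), UTP14A (-1.02), NOP53 (-1.01), LAS1L (-0.99) and TBL3 (-0.93). The list median was -0.34 at 72 h and -0.16 at 6 h. At 6 h 63 of the 76 had a negative change, and at 72 h 67 had one. All actD libraries were below all DMSO libraries for 20 members at 6 h and 15 at 72 h. Over all genes the arms were apart, in either direction, in 15% at 6 h and 19.7% at 72 h. Without DMSO replicate 3 of 72 h 24 members were called, and without both libraries numbered 3, 36 were. None of 20 genes of the RNA polymerase I machinery was called at any time (median -0.11 at 72 h, -0.03 at 6 h). Of 47 large-subunit ribosomal protein genes RPL3 (-1.44) fell (2.13%), and of 32 small-subunit genes RPS9 (-0.73) fell (3.12%), shares no higher than the 3.16% of all protein-coding genes. The medians of -0.33 and -0.34 rested on DMSO replicate 3, where the lists stood 0.52 and 0.54 above the DMSO mean; without it they were 0.00 and -0.03. SNHG9, a host gene of small nucleolar RNA, rose by 1.00 at 72 h, 1 of 23 host genes. Among 30 p53 target genes PMAIP1 (-1.23) and XPC (-0.93) fell at 72 h (6.67%). CDKN1A changed by 0.27 at 6 h and 0.67 at 72 h and MDM2 by 0.32 and 0.25, and neither passed. None of 49 proteasome genes was called (median -0.22 at 72 h, 0.01 at 6 h), and 7 were called without both libraries numbered 3.

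N-glycan branching enzymes held 4 genes that fell, of 20 tested (20%). Beside MGAT3 these were ST6GAL1 (-1.40) and ST3GAL3 (-0.89), which add sialic acid, and MGAT5 (-1.26), which starts the beta-1,6 branch. MGAT5 was at 20.6, 18.7 and 24.6 CPM with actD and 47.5, 48.4 and 57.3 CPM with DMSO at 72 h, and at 39.6, 39.4 and 40.5 against 56.9, 53.8 and 58.1 CPM at 6 h. The arms were apart at both times, and its difference of -0.76 did not pass (adjusted p = 0.416, edgeR). The list median was -0.13 at 72 h and 0.04 at 6 h. Of 45 adhesion and actomyosin genes 5 fell (11.1%), including vinculin VCL (-1.16), integrin ITGA6 (-0.995), catenin CTNNA1 (-1.51) and myosin MYH9 (-1.16). Of 50 splicing factors 6 fell (12%), including HNRNPA1 (-0.86), SRSF7 (-0.75) and SNRNP200 (-1.41). Without DMSO replicate 3 of 72 h, 13 adhesion genes, 16 splicing factors and 10 repair genes were called; without actD replicate 3, 11 adhesion genes and 3 splicing factors were. In the matrix list LAMB2, a laminin chain of kidney basement membrane, rose by 0.78 and COL18A1 fell by 0.97. No member was called at any time among immediate-early, NF-kB, interferon-stimulated, YAP and TEAD, nephron progenitor and chromosome 19 zinc finger genes. The zinc finger genes had a median change of 0.11 at both times, against 0.01 at 6 h and 0.00 at 72 h over all tested genes. Of 260 tested zinc finger genes 179 had a positive change at 6 h and 161 at 72 h, which was not tested as a set. Without both libraries numbered 3, 10 of 260 zinc finger, 5 of 32 YAP and TEAD, 4 of 31 nephron progenitor, 3 of 28 interferon-stimulated, 1 of 32 immediate-early and 1 of 20 NF-kB genes were called at 72 h. In that setting 2052 genes were called over all, against 622 in the joint model, and the lists were not tested against that rise.

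The share of genes called lower at 72 h went up with gene length. The share of protein-coding genes that fell was 0.961% of 3123 genes under 10 kb, 1.29% from 10 to 30 kb, 3.67% from 30 to 100 kb, 6.38% from 100 to 300 kb, 9.78% from 300 to 500 kb and 10.7% of 244 genes over 500 kb, against 3.16% of all 15196. The median change at 72 h went from 0.09 in the shortest class to -0.67 in the longest, and at 6 h from 0.03 to -0.16. Among the 26 genes over 500 kb that fell were TRAPPC9 (-2.14), a vesicle tethering subunit, LRBA (-1.51), a regulator of vesicle traffic, ANK2 (-1.81), an ankyrin, and PHACTR1 (-1.54), an actin regulator. The longest class had a median level of 3.33 CPM against 7.90 to 23.8 CPM in the other classes, and no gene over 300 kb rose. The pattern was uneven between libraries: the genes over 500 kb stood at -0.96 and -1.03 on the log2 scale in actD replicates 1 and 2 of 72 h and at -0.09 in actD replicate 3, against -0.10, -0.14 and 0.27 with DMSO. Without actD replicate 3, 75 of the 244 were called and the median was -1.03; without DMSO replicate 3, 33 were called and the median was -0.45.

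**Figure D5:**
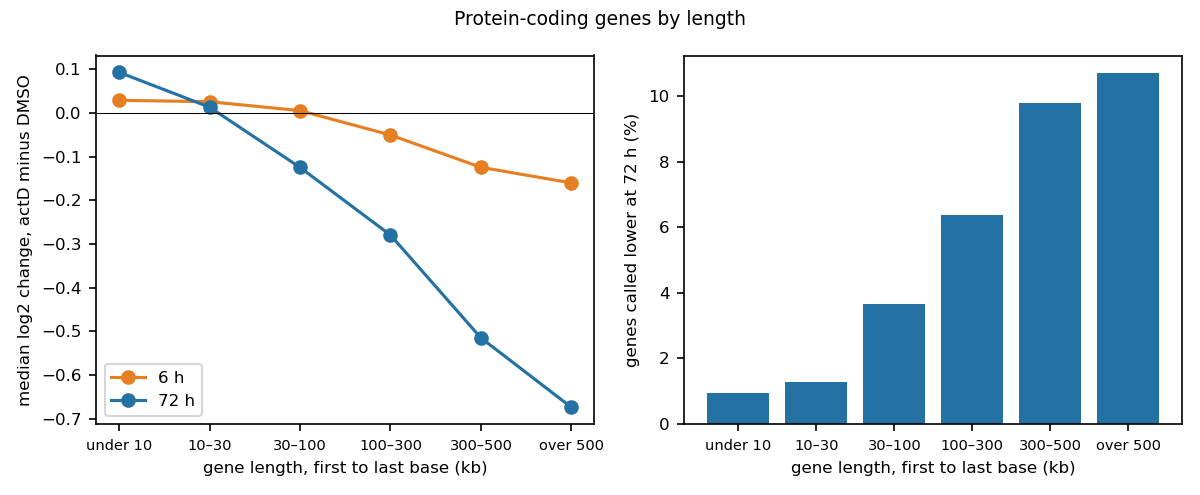
Protein-coding genes in 6 classes of gene length (horizontal axis, kb from the first to the last annotated base): left, the median log2 change at 6 h and 72 h; right, the share called lower at 72 h. The median at 72 h falls from 0.09 to -0.67 and the share called lower rises from 0.961% to 10.7% from the shortest to the longest class.

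Ribosome footprints, the RNA fragments protected by translating ribosomes, give a second readout of the late-only genes from other libraries. The footprint libraries held 23134 to 283435 counts on protein-coding genes, too few for most single genes: MGAT3 had 0 to 3 footprints per library and LYRM7 0 to 3. Summed over 479 late-only lower genes, the share of protein-coding footprints was 2.59%, 3.05% and 4.10% with actD and 9.08%, 9.38% and 6.92% with DMSO at 72 h. The arms did not overlap (means 3.25% ± 0.778 and 8.46% ± 1.34, SD over 3 libraries; p = 0.1 by a two-sided exact permutation test, the smallest that 3 against 3 can give). At 6 h the shares were 7.64%, 8.44% and 6.60% with actD and 9.31%, 9.08% and 8.43% with DMSO (exact permutation p = 0.2). The 20 aminoacyl-tRNA synthetases took 0.129%, 0.157% and 0.255% with actD and 0.464%, 0.388% and 0.347% with DMSO at 72 h, and 0.284%, 0.303% and 0.294% against 0.361%, 0.351% and 0.318% at 6 h. Their arms were apart at both times, each with exact permutation p = 0.1. The 31 ATF4-linked genes took 0.175%, 0.174% and 0.158% with actD and 0.243%, 0.243% and 0.406% with DMSO at 72 h (exact permutation p = 0.1), and overlapped at 6 h (exact permutation p = 0.3). In 2 of the late families the arms overlapped at 72 h, with DMSO replicate 3 among the actD libraries. Cholesterol and fatty acid genes took 0.272%, 0.389% and 0.231% with actD and 0.624%, 0.584% and 0.250% with DMSO (exact permutation p = 0.3). DNA replication genes took 0.102%, 0.124% and 0.145% with actD and 0.498%, 0.669% and 0.130% with DMSO (exact permutation p = 0.2). The 59 late-only higher genes took 0.711%, 0.795% and 0.947% with actD and 0.405%, 0.247% and 0.578% with DMSO at 72 h, again apart (exact permutation p = 0.1). Footprint and RNA libraries may come from the same cultures, so this readout is not independent of the cells in which the genes were chosen.

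Ribosomal RNA encoded in mitochondrial DNA (MT-RNR2 and MT-RNR1) made up a larger share of the RNA counts with actD than with DMSO at 72 h. With actD it was 32.3%, 27.8% and 24.6% at 72 h and 7.62%, 7.30% and 8.19% at 6 h, and with DMSO 22.5%, 19.4% and 15.5% at 72 h and 8.54%, 7.28% and 7.46% at 6 h. The arms were apart at 72 h and overlapped at 6 h. The actD minus DMSO difference was 9.14 percentage points larger at 72 h (two-sided exact permutation within times, p = 0.045, 400 labelings). This permutation tests for no actD effect at either time, so its p does not show that the effects were unequal. The libraries of 72 h alone, 3 against 3, can give no exact permutation p under 0.1. With single libraries left out the p went up to 0.13 and the difference ran from 7.11 to 10.96 points, the lowest without actD replicate 1 of 72 h. The 13 messenger RNAs encoded in mitochondrial DNA had a median change of -0.21 at 6 h and -0.10 at 72 h (-0.36 to 0.27 with 1 library left out) with none called, and 3 of 73 nuclear-encoded respiratory chain subunits fell at 72 h (4.11%, near the 3.16% of all protein-coding genes), among them ATP5F1A (-1.18) and ATP5F1B (-0.70).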

How the data were processed

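Per the labels' protocols, RNA was extracted with either of 2 kits, without saying which for which library, and made into stranded total RNA libraries; HISAT2, StringTie and hg38 are named in the submitters' processing notes, without versions. The authors deposited 1 table of estimated counts (expected counts) per time, whole numbers per gene, not normalized and not pooled. In the 6 h table small values pile up at steps of about 2.69 counts; the 72 h table shows no such step. Strand use in counting is not given in the sources used here. The tables were joined on 58219 gene identifiers; 99.4% matched GENCODE 29 (GRCh38), the source of symbols and coordinates.

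Testing used edgeR 4.0.16 in R 4.3.3: TMM, filterByExpr, glmQLFit and glmQLFTest, two-sided, 4 group means over 12 libraries, Benjamini-Hochberg over 24251 genes. CPM are scaled to the TMM-adjusted library totals; a count of 0 at 72 h allows up to 3 counts, 0.0485 to 0.0890 CPM, counting error only. The code was tested on simulated data. Alternatives were DESeq2 1.42.0, other scalings, filters and fits, the replicate block and leaving out libraries. The 2-week libraries were not used here. Replicates were no duplicates (chi-square per degree of freedom 27.5 or more).

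Members and gene lists were chosen with earlier results of these data known. Named genes are those called for the difference; of each class the 8 of smallest p per direction (protein-coding, 1 CPM or more); of each list the smallest difference p and up to 4 called; and, with few differences called, the 10 per direction of smallest difference p. Other called list members, the microRNA genes and other genes named with values were added after their values were seen. Promoter and microRNA sequences are from RefSeq GRCh38.p14. Some members of the gene lists are counted but not reported here by name.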

Additional observations from a re-analysis of the deposited data

Results flagged for a closer look

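These 5 results passed the rule for a difference between the times. For the 4 genes the rule was a test of that difference. For the mitochondrial share it was the permutation within times, which tests for no actD effect at either time. The difference on the log2 scale, 72 h minus 6 h, was -3.94 for MGAT3, 5.42 for AC011511.1, 2.88 for LYRM7 and 9.35 for AC023512.1 (edgeR quasi-likelihood test). The fitted value of AC023512.1, whose DMSO libraries of 72 h are all at 0, depends on the prior count and is no fold. The mitochondrial ribosomal RNA share differed by 9.14 percentage points. Its p moved from 0.045 to 0.13 at most when libraries were left out 1 at a time.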

How the results depend on the processing

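No called gene among those named by rule reversed its direction in any alternative; the other called genes were not followed. The number of genes called at 72 h (622) was 1818 with DESeq2, 341 with unscaled library totals, 1 with each time fitted alone, 330 with the replicate block, 2052 without both libraries numbered 3 at 72 h and 94 (without actD 72 h replicate 1) to 1195 (without DMSO 72 h replicate 3) when 1 library was left out. Late-only genes followed with 1808, 341, 1, 330, 2042 and 94 to 1193. At 6 h the count of 2 was 30 with DESeq2, 5 with the robust fit, 1 with unscaled totals, the stricter filter (1 CPM in 3 libraries) or 6 h counts divided by their step, 0 with the legacy fit, each time alone or the replicate block, 21 without both libraries numbered 3 and 2 to 11 with 1 library left out. Early-only genes (2) were 20, 4, 1, 0 and 11 under the same settings, and 2 to 9. Shared genes (0) were 10 with DESeq2, 1 with the robust fit, 10 without both libraries numbered 3 and 0 to 2 with 1 library left out. The difference between times (4) was called for 158 genes with DESeq2, 2 with the looser filter or the replicate block, 236 without both libraries numbered 3 and 2 to 33 (without actD 72 h replicate 3) with 1 library left out. The mitochondrial share difference was 7.11 to 10.96 points with 1 library left out.

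The replicate numbers were not taken as pairs, since nothing in the labels says that equal numbers share a culture or a day. Not every same-numbered correlation was over 0.1 either. Deviations of same-numbered libraries correlated at -0.0908 to -0.0133 at 6 h and 0.0629 to 0.148 at 72 h. At 72 h each library correlated best with its own number, a hint from the data that numbers may be shared at that time. No scaling moved the median of all genes by over 0.1. Of the values of named genes at 72 h under alternatives, 1606 kept direction and call and 458 lost the call.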
